A study of Mus musculus with 6 samples.

Results

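The direct comparison of 2 Ikaros mutants is described here: B cells of mice without zinc finger 1 of Ikaros against B cells of mice without zinc finger 4. It rests on 4 of the 6 RNA-seq libraries of the study, 2 with genotype Ikaros_ZnF1-/- (the ZnF1 mutant) and 2 with genotype Ikaros_ZnF4-/- (the ZnF4 mutant), and the other 2, from wild-type mice, entered the same fit and are given beside the mutant values. All mice were C57BL/6 and 6 weeks old, and the cells were IgM+ B cells, that is, B cells with their antigen receptor on the surface, sorted from bone marrow. The mutation is given as a genotype of the mouse, with no Cre or promoter named, so the other cells of the marrow carried it too. The labels do not say whether each library came from its own animal or from a pool, so the p-values reflect no more than the spread among these 6 libraries. Of 22098 gene names in the deposited table, 10322 had a mean of at least 1 RPKM (read density per length of transcript and per size of library) over the 6 libraries and were compared.

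Ikaros, the product of Ikzf1, is a zinc finger transcription factor that lymphocyte development depends on. A cluster of 4 fingers near its N terminus reads DNA around a GGGAA core, and a separate C-terminal pair joins Ikaros to its relatives. Within the N-terminal cluster the central fingers are needed for stable binding, while the first and the last affect which sites are bound. In early B cells Ikaros restrains progenitor and pre-B cell genes and takes part in the switch from a proliferating to a resting pre-B cell. The comparison asks which genes of IgM+ cells differ according to which outer finger is lost.

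The libraries had the profile of B cells, with Cd79b, a signalling chain of the antigen receptor, between 1604 and 2227 RPKM and Cd3e, a T cell receptor chain, between 0.2 and 0.7 RPKM. One library stood apart in granulocyte and globin genes. In ZnF1 replicate 2 the granulocyte gene S100a8 was at 1808 RPKM and the globin gene Hbb-b1 at 353.7, against 416.2 and 63.6 in ZnF1 replicate 1 and at most 524.5 and 152.9 in the ZnF4 libraries. The ZnF1 pair had 460 genes over 2-fold apart, the ZnF4 pair 72 and the wild-type pair 112. Igj, a plasma cell gene, set the wild-type libraries apart, at 413.8 RPKM in replicate 1 and 1.1 in replicate 2. It was at 13.5 and 3.3 in the ZnF1 libraries and 71.9 and 65.2 in the ZnF4 libraries. Xist and the Y-linked gene Ddx3y showed that replicate 1 of each mutant came from females and replicate 2 of each from males, and both wild-type libraries from females, so each mutant had 1 library of each sex.

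Ikzf1 itself was read at 201.1 and 168.4 RPKM in the ZnF1 libraries, 287.3 and 244.0 in the ZnF4 libraries and 176.5 and 178.6 in wild type. Both ZnF4 libraries lay above both ZnF1 libraries, but the difference of -0.52 (SE 0.16) on the log2 scale did not pass the test (limma, adjusted p = 0.114). A value for the whole gene does not show whether the exon for a finger is missing, so it does not check the genotype labels.

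In all, 493 genes differed between the mutants, 4.78% of those tested (limma on log2(RPKM + 0.5), Benjamini-Hochberg adjusted p under 0.05). Of these, 215 (2.08%) were higher in the ZnF1 mutant and 278 (2.69%) higher in the ZnF4 mutant. Differences are written as ZnF1 minus ZnF4, so a positive value is higher without finger 1 and a negative value higher without finger 4. The median size of a called difference was 1.20 on the log2 scale (1.06 for genes higher in the ZnF1 mutant, 1.35 for those higher in the ZnF4 mutant), the smallest was 0.52 and the largest 4.41. At least a 2-fold difference was found in 324 of the 493, in 123 of the genes higher in the ZnF1 mutant and 201 of those higher in the ZnF4 mutant. For 55 genes the lower mutant had a mean under 1 RPKM and the higher one at least 3, and 41 of these 55 were higher in the ZnF4 mutant. The 4 mutant libraries did not overlap for any called gene, which was also so for 46.8% of all tested genes. This lack of overlap also fixes the called direction within the females and within the males for all 493, so that agreement is no separate support. For 261 the difference was at least 2-fold in both sexes.

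The pool of all tested genes was centred near no difference, with a median of 0.03 and 54.2% of genes higher in the ZnF1 mutant. The 95% interval of the difference lay within 2-fold in either direction for 8324 genes (80.6%). Without any adjustment, 2064 genes (20.0%) had a p under 0.05. The number of calls depended on single libraries: it was 814 without ZnF1 replicate 1, 352 without ZnF1 replicate 2, 259 without either wild-type library, 2 without ZnF4 replicate 2 and 0 without ZnF4 replicate 1. In the last pair of fits 1474 and 1689 genes had an unadjusted p under 0.05. Since the mutant libraries of the 493 genes do not overlap, leaving out 1 library could not turn a direction, and the lone library of the reduced genotype was assumed to vary like the others.

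**Figure D1:**
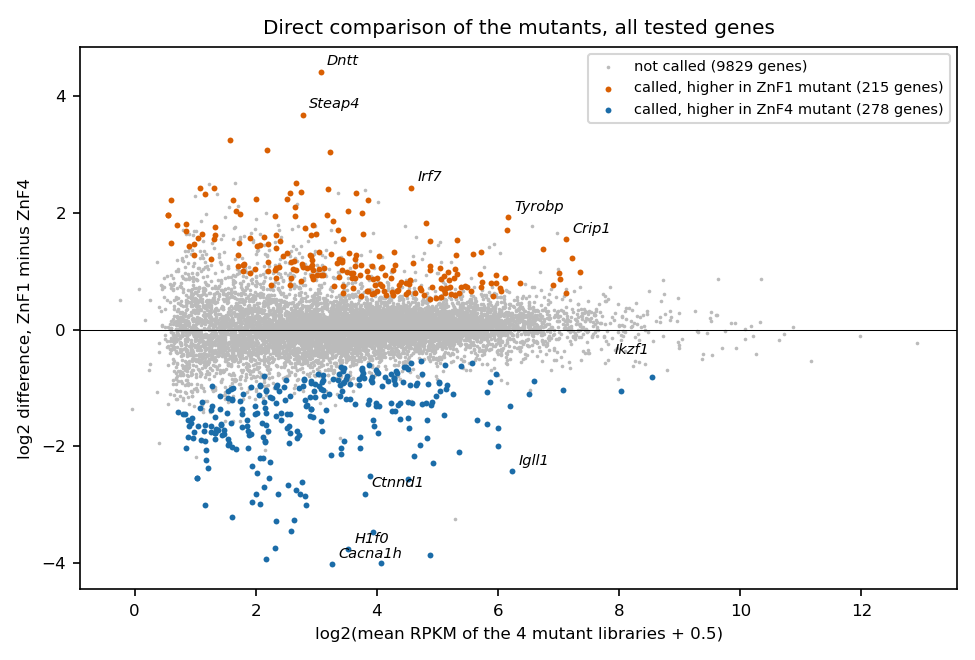
Each point is a tested gene, with the log2 of its mean RPKM in the 4 mutant libraries (plus 0.5) on the x axis and the log2 difference, ZnF1 minus ZnF4, on the y axis. Called genes are coloured, 215 higher in the ZnF1 mutant and 278 higher in the ZnF4 mutant, and they reach from Dntt at 4.41 to Cacna1h at -4.02.

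The 15 largest differences toward the ZnF1 mutant ranged from Dntt to Unc5cl and included 3 interferon response genes, Irf7, Ifit3 and Ifit1. Dntt, the polymerase (TdT) that adds untemplated bases to V(D)J junctions and marks early lymphoid progenitors, was at 13.5 and 17.7 RPKM in the ZnF1 libraries and 0.2 and 0.3 in the ZnF4 libraries, a difference of 4.41 (SE 0.60, adjusted p = 0.00945). The wild-type libraries, at 2.1 and 11.1, lay between the mutants but were far apart from each other. Steap4, a metalloreductase of the cell membrane, was at 12.9 and 11.6 in the ZnF1 libraries and 0.4 and 0.6 in the ZnF4 libraries, with wild type at 6.3 and 7.5. Its difference of 3.68 (SE 0.19, adjusted p = 0.00046) had one of the smallest errors among the large ones, and each genotype formed a group of its own without overlap. Chst10, the sulfotransferase that makes the HNK-1 carbohydrate, had 18.0 and 14.2 RPKM against 0.9 and 2.4, with 6.2 and 3.8 in wild type, a difference of 3.03 (SE 0.36).

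Cd209d, a C-type lectin of the DC-SIGN family, was read at 3.4 and 6.4 RPKM in the ZnF1 libraries and at 0.1 and 0.0 in the ZnF4 libraries, with 0.2 and 0.5 in wild type. Ppl, the cytolinker periplakin, was at 3.5 and 3.0 against 0.2 and 0.3, and wild type at 0.3 and 0.2. Dkkl1 stood at 9.8 and 10.7 against 1.3 and 1.5, and wild type at 2.2 and 1.6. For these 3 genes wild type was near the ZnF4 level, and the ZnF1 libraries were the high ones. Dusp3, a dual-specificity phosphatase (2.40), Smad1, a transducer of bone morphogenetic protein signals (2.34), Pear1, an EGF-repeat receptor first described on platelets (2.23), and Unc5cl (2.23) also passed, each with both wild-type libraries between the mutant pairs.

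Padi4, which converts arginine to citrulline and is abundant in neutrophils, was at 5.2 and 16.9 RPKM in the ZnF1 libraries and 1.5 and 1.4 in the ZnF4 libraries. Myo1f, a myosin of leukocytes, was at 11.9 and 29.7 against 3.2 and 3.5. In both, the high value belonged to ZnF1 replicate 2, the library with the high granulocyte genes. Without that library the differences were 1.55 (adjusted p = 0.0421) for Padi4 and 1.69 (adjusted p = 0.00628) for Myo1f, against 2.35 and 2.33 with it.

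The 15 largest differences toward the ZnF4 mutant ranged from Cacna1h to Pcp4. Cacna1h, a T-type calcium channel subunit, was at 20.0 and 15 RPKM in the ZnF4 libraries and 0.6 and 0.6 in the ZnF1 libraries, a difference of -4.02 (SE 0.19, adjusted p = 0.000387). The wild-type libraries were both at 3.9, so wild type lay in the middle on the log scale, with the ZnF1 mutant at -2.0 and the ZnF4 mutant at 2.02 relative to it. H1f0, a linker histone linked to differentiation, was at 21.5 and 20.5 against 1.0 and 1.2, with wild type at 10.1 and 7.7 (difference -3.75, SE 0.18). Mtap2, the microtubule-associated protein now named Map2, had 9.2 and 6.7 against 0.1 and 0.0, with 1.8 and 4.4 in wild type. Rbpms, an RNA-binding protein, was at 8.4 and 9.0 against 0.5 and 0.4, and wild type at 5.0 and 3.7. In all 4 genes the 3 genotypes were ordered with wild type between the mutants and no library out of order.

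Wls, the carrier that brings Wnt proteins to the cell surface, was at 29.4 and 25.5 RPKM in the ZnF4 libraries, 1.2 and 3.3 in the ZnF1 libraries and 9.2 and 10.1 in wild type, a difference of -3.46 (SE 0.33). Tmem176a and Tmem176b, neighbouring membrane protein genes, were at 27.8 and 34.6 and at 45.4 and 63.4 in the ZnF4 libraries. In the ZnF1 libraries the first was at 1.0 and 2.1 and the second at 2.1 and 4.9, which overlapped wild type (3.4 and 1.4 for the first, 5.1 and 2.4 for the second). The difference was thus carried by high ZnF4 values alone.

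Several other genes were low in wild type and in the ZnF1 mutant. Nrp2, a semaphorin co-receptor, was at 9.3 and 8.3 RPKM in the ZnF4 libraries and at most 0.3 in the other 4. Apba1, an adaptor of synaptic vesicle exocytosis, was at 12.1 and 9.4 against 0.4 and 1.0, and wild type at 0.3 and 0.4. Sema5a, a transmembrane semaphorin, was at 13.2 and 7.8 against 0.7 and 0.3, with wild type at 0.9 and 1.0, just above both ZnF1 libraries. Prox1, a homeobox factor known from lymphatic endothelium, was at 3.4 and 3.6 in the ZnF4 libraries and listed at 0 in the other 4, so no fold is given. Rab3b, a vesicle GTPase (-3.21), Maged1 (-3.00), Pls3, an actin bundler (-2.98), and Pcp4, a calmodulin-binding peptide (-2.85), completed the list of the largest differences.

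**Figure D2:**
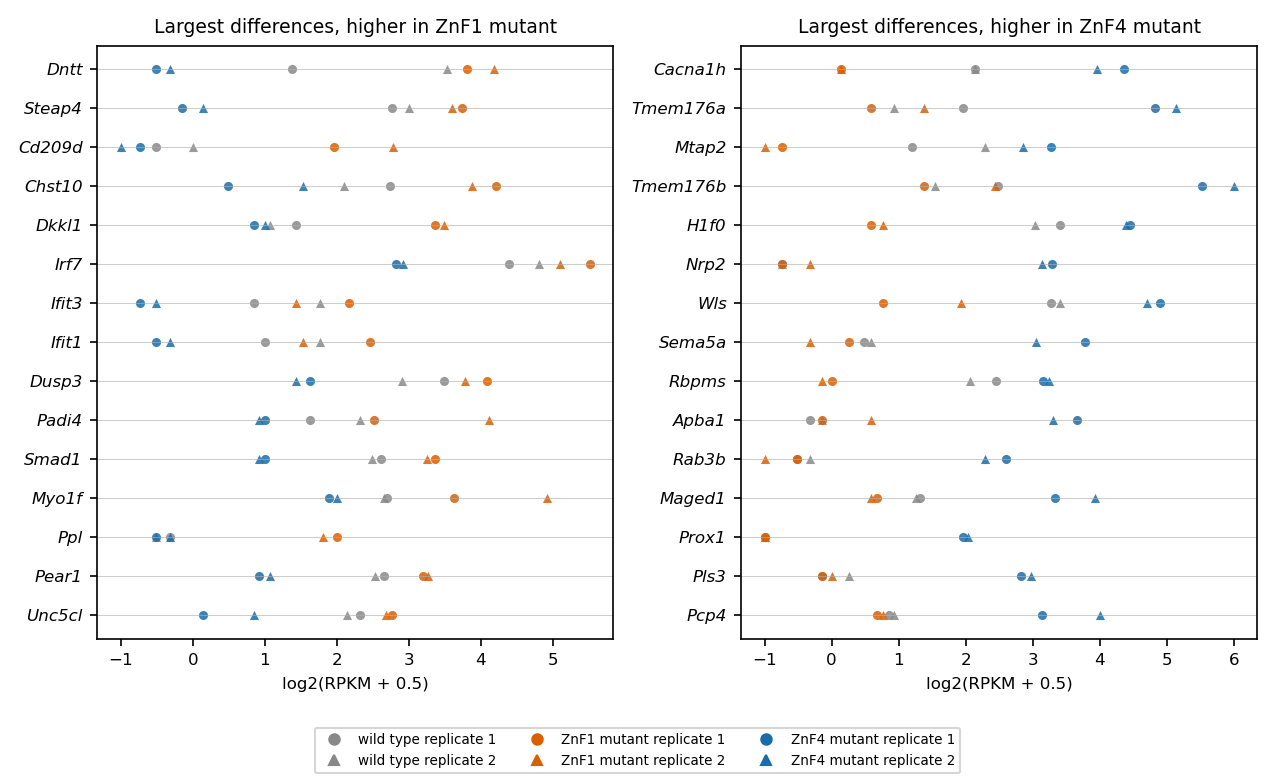
The 15 largest differences in each direction are shown as log2(RPKM + 0.5) on the x axis, with 1 circle (replicate 1) and 1 triangle (replicate 2) per library for wild type (grey), the ZnF1 mutant (orange) and the ZnF4 mutant (blue). Wild type lies close to the blue points for Cd209d, Dkkl1 and Ppl, close to the orange points for Nrp2, Apba1 and Prox1, and between the mutants for Steap4, Cacna1h and H1f0.

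The place of wild type is given as a description without a test. Called genes were picked for a wide gap between the mutants, which by itself makes a wild-type mean inside the gap likely. No share over all tested genes is given for that count, for 2-fold moves from wild type or for opposite moves. The wild-type mean lay between the mutant means for 387 of the 493 called genes, beyond the ZnF1 mean for 92 and at or beyond the ZnF4 mean for 14. Wild type was nearer to the ZnF1 mutant in 364 of the 493, and in 5833 of all 10322 tested genes. Among genes higher in the ZnF1 mutant the median of the ZnF1 mutant was 0.24 above wild type and that of the ZnF4 mutant 0.81 below (-0.81). Among genes higher in the ZnF4 mutant the medians were -0.44 for the ZnF1 mutant and 0.89 for the ZnF4 mutant. A difference from wild type of at least 2-fold was seen for 61 called genes after finger 1 loss and 192 after finger 4 loss. For 93 genes the mutants lay on opposite sides of wild type by at least 0.5 each, 26 of them higher in the ZnF1 mutant, such as Dntt (1.54 and -2.88) and Chst10 (1.62 and -1.41), and 67 higher in the ZnF4 mutant, such as Wls (-2.0 and 1.46). Both distances use the same wild-type libraries and are not independent.

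**Figure D3:**
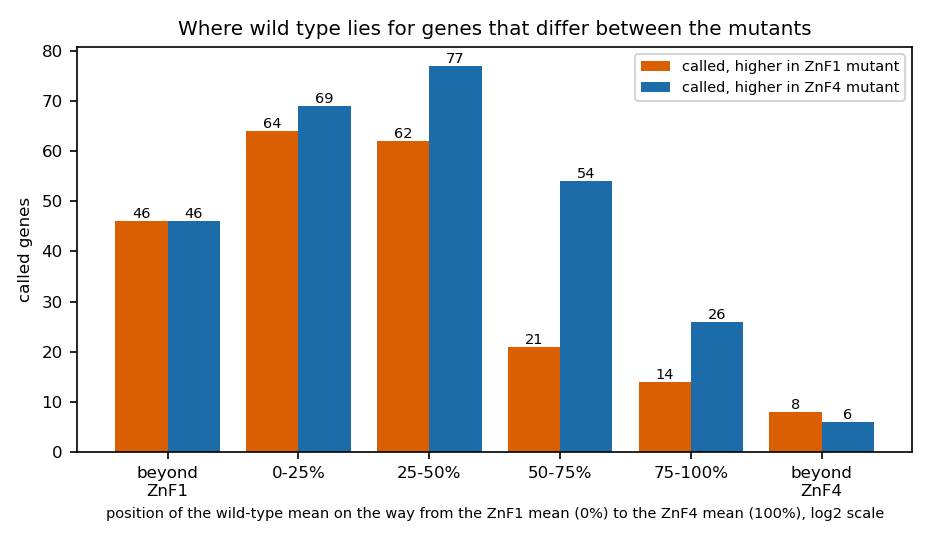
Bars count called genes by where the wild-type mean lay on the way from the ZnF1 mean to the ZnF4 mean, on the log2 scale, for genes higher in the ZnF1 mutant (orange) and in the ZnF4 mutant (blue). The fullest bins are the pair next to the ZnF1 mean, with 64 and 62 orange and 69 and 77 blue genes, against 21 and 14 orange and 54 and 26 blue in the mirror pair next to the ZnF4 mean.

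Loss of finger 1 left interferon response genes higher than loss of finger 4: 13 of 36 tested members passed in that direction and 0 in the other, beside 2.08% of all tested genes. These genes encode antiviral proteins and the factors that induce them, and are switched on by the STAT and IRF factors below interferon receptors. The median difference of the 36 was 0.74, against 0.03 for all tested genes, and 32 were positive. Irf7, the factor that amplifies type I interferon, was at 45.1 and 33.8 RPKM in the ZnF1 libraries, 6.6 and 7.1 in the ZnF4 libraries and 20.4 and 27.4 in wild type (difference 2.43, SE 0.19, adjusted p = 0.00205). Its 3 genotypes did not overlap.

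Among the effectors, Ifit3 was at 4.0 and 2.2 RPKM against 0.1 and 0.2, with wild type at 1.3 and 2.9. Ifit1, which binds foreign RNA, was at 5.0 and 2.4 against 0.2 and 0.3, with 1.5 and 2.9 in wild type. Oasl1, a relative of the oligoadenylate synthetases, was at 26.1 and 20.4 against 3.9 and 5.3, with 17.1 and 30.2 in wild type (difference 2.22, SE 0.28). For these 3 genes the ZnF1 and wild-type ranges overlapped and the ZnF4 libraries were the low ones. Bst2, or tetherin, which holds budding virus at the membrane, was at 75.3 and 59.9 against 24.5 and 30.0, with 43.7 and 56.0 in wild type (difference 1.29, SE 0.18, adjusted p = 0.0112). Rtp4 (1.86), Usp18, the negative regulator of the receptor (1.80), Oas2 (1.70), Oas3 (1.39), Ifi27l2a (1.22), Gbp3 (1.02), Parp14 (0.74) and Ifi35 (0.73) were the other called members. In 12 of the 13 both wild-type libraries lay above both ZnF4 libraries, with Oas3 the exception, and in 7 of the 13 wild type overlapped the ZnF1 mutant. The 13 were picked for ZnF4 values below the ZnF1 values, which favours the first count, and no share over all tested genes is given for it.

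Other members did not pass. Stat2 (0.47) and Irf9 (0.51), which carry the signal to the nucleus, missed the threshold (adjusted p = 0.154 and 0.0775), and Irf1 (-0.22) and Ifih1 (-0.17) had values of the other sign. The count was 11 without ZnF1 replicate 2, 12 without ZnF1 replicate 1, and 0 without either ZnF4 library, with medians of 0.68 and 0.87 in those last fits. It fell to 3 when genes of every level were tested. Oas and Ifit genes belong to families of similar sequence, so their reads could have been split between copies.

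Plasmacytoid dendritic cells, a source of interferon, and natural killer cells have a list of their own. Of its 11 tested members, Cd209d and Bst2 passed, both higher in the ZnF1 mutant, with Bst2 also on the interferon list, and the median was 1.29. The called share was 18.2%, beside 4.78% of all tested genes. Siglech, a defining gene of plasmacytoid dendritic cells, was at 5.3 and 7.2 RPKM in the ZnF1 libraries, 2.3 and 1.9 in the ZnF4 libraries and 1.1 and 4.0 in wild type (difference 1.37, adjusted p = 0.141). Ncr1, a defining gene of natural killer cells, was at 0.4 and 1.7 against 0.0 and 0.2. The summed RPKM of the 18 listed genes lay between 1271 and 1668 in the ZnF1 libraries, 1189 and 1370 in the ZnF4 libraries and 1656 and 1686 in wild type, most of it from Ly6d, which B cells express. The part of these cells in the interferon difference was not tested. In bulk RNA, fewer cells of a type and less RNA per cell cannot be told apart.

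Promoters were read for the genes whose reference entries matched, to set the DNA beside the differences. The window ran from 250 bases before to 50 after an annotated start in RefSeq, build GRCm38.p6, and matched 171 of the 215 genes higher in the ZnF1 mutant and 205 of the 278 higher in the ZnF4 mutant. TGGGAA, which holds the GGGAA core that Ikaros reads, was found on either strand in 23.6% of the windows of genes higher in the ZnF1 mutant, 25.8% of those higher in the ZnF4 mutant, 22.9% of all tested genes and 25.6% of all promoters. GAAA repeated after a gap of 2 bases, the core of the element that IRF and STAT complexes read in interferon response genes, was in 7.73% of windows of genes higher in the ZnF1 mutant (18 of 233), 2.95% of those higher in the ZnF4 mutant (8 of 271), 3.19% of all tested genes and 3.44% of all promoters. It was searched after the interferon genes had been seen, and since TGGGAA ends in letters with which GAAA begins, matches can overlap. Among interferon list members it was in 5 of 9 windows of called genes and in 9 of 23 windows of genes not called. A match is a run of letters and does not show that a factor binds there.

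The first 250 bases of 5 windows with the spaced GAAA pair are printed because their genes were low in the ZnF4 mutant, and those of Steap4, Rag1 and Tmem176a because they hold TGGGAA near genes with large or lineage-related differences. Each runs 5′ to 3′ on the strand of the gene and ends at the base before the start, and capitals mark either motif or its reverse complement. Ifit3 is at chr19:34583279-34583528 (+), Ifit1 at chr19:34640639-34640888 (+), Bst2 at chr8:71537473-71537722 (-), Pydc4 (now Ifi213) at chr1:173599273-173599522 (-) and Pydc3 (now Ifi208) at chr1:173673415-173673664 (+). Steap4 is at chr5:7960222-7960471 (+), Rag1 at chr2:101649533-101649782 (-) and Tmem176a, from the second of 2 starts, at chr6:48841406-48841655 (+).
Ifit3: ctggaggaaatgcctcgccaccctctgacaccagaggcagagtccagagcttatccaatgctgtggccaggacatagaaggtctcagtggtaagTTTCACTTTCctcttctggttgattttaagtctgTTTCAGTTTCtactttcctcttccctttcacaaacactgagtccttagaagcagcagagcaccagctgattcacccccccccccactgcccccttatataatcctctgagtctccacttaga
Ifit1: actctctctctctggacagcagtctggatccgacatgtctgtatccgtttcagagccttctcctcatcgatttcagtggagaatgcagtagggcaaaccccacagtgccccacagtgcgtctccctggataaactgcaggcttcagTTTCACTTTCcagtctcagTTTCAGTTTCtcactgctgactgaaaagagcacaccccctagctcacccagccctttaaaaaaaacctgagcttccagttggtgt
Bst2: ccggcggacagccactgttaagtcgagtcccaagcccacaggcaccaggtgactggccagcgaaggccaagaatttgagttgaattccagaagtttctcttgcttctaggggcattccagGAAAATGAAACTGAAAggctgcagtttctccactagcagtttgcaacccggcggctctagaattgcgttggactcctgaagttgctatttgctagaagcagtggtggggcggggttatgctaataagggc
Pydc4: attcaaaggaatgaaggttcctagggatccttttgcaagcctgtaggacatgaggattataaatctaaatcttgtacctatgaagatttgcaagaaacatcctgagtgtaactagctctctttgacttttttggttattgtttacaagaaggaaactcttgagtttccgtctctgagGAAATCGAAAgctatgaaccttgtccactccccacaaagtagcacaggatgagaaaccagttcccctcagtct
Pydc3: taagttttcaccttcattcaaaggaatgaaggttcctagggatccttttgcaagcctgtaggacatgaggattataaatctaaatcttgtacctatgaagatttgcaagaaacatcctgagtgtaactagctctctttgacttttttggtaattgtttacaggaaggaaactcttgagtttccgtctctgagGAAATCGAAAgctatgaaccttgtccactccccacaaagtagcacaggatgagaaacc
Steap4: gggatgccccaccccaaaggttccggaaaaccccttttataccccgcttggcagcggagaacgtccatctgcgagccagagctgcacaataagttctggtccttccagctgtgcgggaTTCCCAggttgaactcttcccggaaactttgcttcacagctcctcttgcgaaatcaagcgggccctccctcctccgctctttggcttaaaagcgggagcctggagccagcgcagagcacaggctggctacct
Rag1: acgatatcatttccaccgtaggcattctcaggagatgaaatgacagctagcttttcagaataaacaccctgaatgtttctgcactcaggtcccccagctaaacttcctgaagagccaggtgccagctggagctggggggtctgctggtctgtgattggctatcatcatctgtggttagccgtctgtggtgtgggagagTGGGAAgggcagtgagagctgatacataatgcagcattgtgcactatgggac
Tmem176a: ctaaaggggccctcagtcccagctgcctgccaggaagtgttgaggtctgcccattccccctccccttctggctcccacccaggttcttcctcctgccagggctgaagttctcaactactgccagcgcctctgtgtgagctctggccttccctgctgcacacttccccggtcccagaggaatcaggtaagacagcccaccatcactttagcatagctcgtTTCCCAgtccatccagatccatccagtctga

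Ifit1 and Ifit3 each hold TTTCACTTTC followed by TTTCAGTTTC, starting 104 and 85 bases before the start in Ifit1 and 156 and 122 bases before it in Ifit3. Bst2 has a pair of overlapping matches, 130 and 124 bases before its start. The same stretches of Irf7 and Oasl1, which were also low in the ZnF4 mutant, hold 0 spaced GAAA pairs. Pydc4 and Pydc3 share GAAATCGAAA and long stretches around it, 73 and 58 bases before the start, and they belong to a family of near-identical genes whose reads could have been split among copies. Pydc4 was at 2.8 and 2.4 RPKM in the ZnF1 libraries and 0.6 and 0.5 in the ZnF4 libraries (difference 1.56), and Pydc3 at 8.3 and 6.4 against 1.9 and 2.6 (difference 1.51). In Steap4, Rag1 and Tmem176a the capitals start 132, 52 and 31 bases before the start.

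Cell cycle genes followed the same direction, with 9 of 35 tested members higher in the ZnF1 mutant, 0 in the opposite direction and a median of 0.67, beside 2.08% of all tested genes called higher in the ZnF1 mutant. Cdkn1a, the cell cycle inhibitor p21, was at 5.1 and 5.1 RPKM in the ZnF1 libraries, 1.2 and 1.6 in the ZnF4 libraries and 4.7 and 6.1 in wild type (difference 1.57, SE 0.20, adjusted p = 0.00827). Ccnd3, the D cyclin that pre-B cells need to divide, was at 45.6 and 47.4 against 24.0 and 27, with 48.7 and 53.3 in wild type. E2f2, a transcription factor of the G1 phase, was at 79.3 and 84.7 against 45.6 and 39.6, with 89.0 and 113.1 in wild type. In these 3 genes the ZnF4 libraries were the low ones, and the list thus holds an inhibitor as well as drivers of division.

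Ccne1, the cyclin that starts S phase, was at 9.2 and 11.1 RPKM against 4.0 and 4.3, with wild type at 7.1 and 7.4. Rrm2, a subunit of ribonucleotide reductase (1.22), Top2a, a topoisomerase of dividing cells (1.09), E2f1 (1.04), Birc5, or survivin (0.94), and Ccna2, a cyclin of S and G2 phase (0.75), were the remaining called members. The minichromosome maintenance genes Mcm2 to Mcm7 had small positive differences (0.19 to 0.48) and did not pass. Tk1, thymidine kinase, had the opposite sign (-0.90, adjusted p = 0.147). Both wild-type libraries lay above both ZnF4 libraries in all 9 called genes, a count that picking genes with low ZnF4 values favours and that has no share over all tested genes beside it. ZnF1 replicate 2, with its high myeloid and erythroid genes, affected this count: without it 3 members were called higher in the ZnF1 mutant and 1 higher in the ZnF4 mutant (median 0.51), and without ZnF1 replicate 1, 14 were higher in the ZnF1 mutant. The count was 6 without either wild-type library, 0 without either ZnF4 library and 3 when genes of every level were tested. With sex as a term it was 6, with 1 called the other way.

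**Figure D4:**
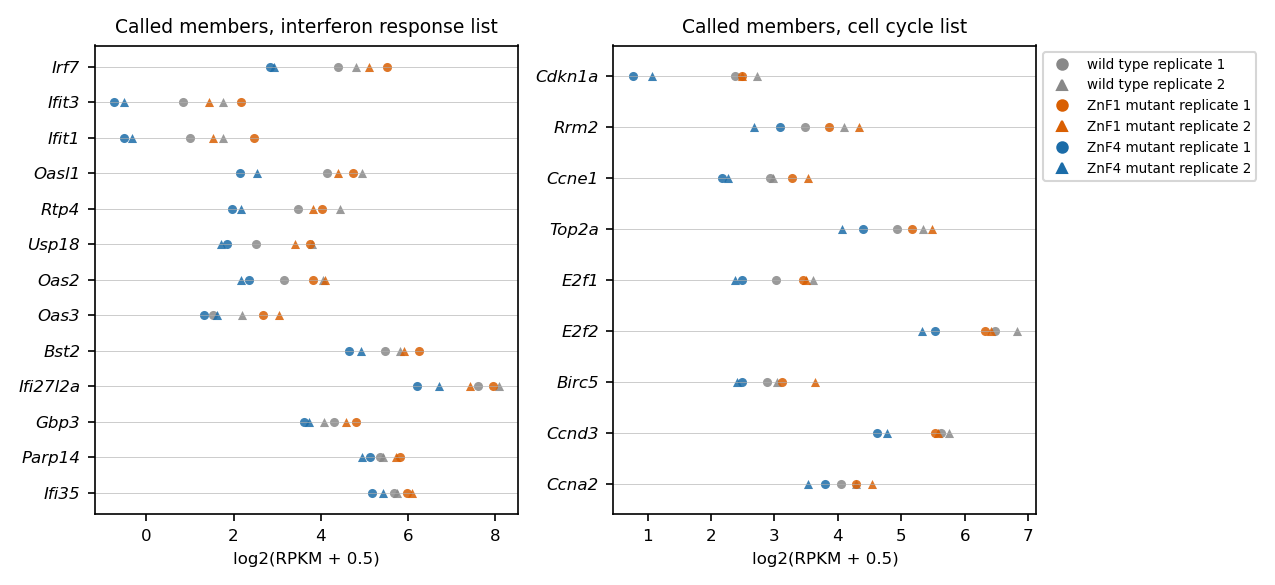
Called members of the interferon response list (left, 13 genes) and the cell cycle list (right, 9 genes) are plotted as log2(RPKM + 0.5) on the x axis, 1 point per library with colours for genotype and shapes for replicate. The blue ZnF4 points are the lowest in every row apart from Oas3, where a wild-type point lies between them. Grey wild-type and orange ZnF1 points overlap in 7 of the 13 interferon rows and 5 of the 9 cell cycle rows. In 6 interferon rows and 2 cell cycle rows both orange points lie above both grey points.

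The pro-B and pre-B cell genes split. Of 19 tested members, Dntt and Rag1 were higher in the ZnF1 mutant and Igll1 and Vpreb1 higher in the ZnF4 mutant, and the median was 0.12. The called share was 21.1%, beside 4.78% of all tested genes. Rag1, a subunit of the recombinase that cuts antigen receptor genes, was at 12.3 and 9.2 RPKM in the ZnF1 libraries, 4.4 and 2.2 in the ZnF4 libraries and 14.5 and 17.6 in wild type (difference 1.62, SE 0.29, adjusted p = 0.0247). Igll1, the lambda5 chain of the surrogate light chain that pre-B cells carry, was at 18.5 and 28.6 against 130.4 and 121.3, with 5.7 and 13.7 in wild type (difference -2.42, SE 0.37, adjusted p = 0.0153). Vpreb1, its partner chain and genomic neighbour, was at 6.1 and 4.2 against 25.9 and 14.6, with 1.9 and 3.8 in wild type (difference -1.84, SE 0.36, adjusted p = 0.0325). So both mutants were above wild type in Igll1, the ZnF4 mutant far more, while Rag1 was below wild type in both.

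Adhesion and guidance genes also held differences of both signs. Among 19 catenin and actin adhesion genes, 3 were higher in the ZnF4 mutant and 1 in the ZnF1 mutant, although the list's median was positive (0.32). The called share was 21.1%, beside 4.78% of all tested genes. Ctnnd1, p120 catenin, which steadies cadherins at the membrane, was at 2.6 and 3.4 RPKM in the ZnF1 libraries, 22.5 and 25.2 in the ZnF4 libraries and 1.0 and 1.1 in wild type (difference -2.81, SE 0.18, adjusted p = 0.00101). Ctnna1, alpha-catenin, which links cadherin complexes to actin, was at 9.6 and 11.4 against 36.7 and 32.8, with 16.2 and 14.6 in wild type (difference -1.68). Rnd3, a GTPase that loosens actin fibres, was at 0.6 and 1.9 against 12.9 and 9.2 (difference -2.81). All 3 were highest in the ZnF4 mutant. Vcl, vinculin, which ties adhesion sites to actin, went the other way, at 25.2 and 29.8 against 11.4 and 9.8, with 26.6 and 22.3 in wild type (difference 1.33, SE 0.15).

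Among 15 semaphorin, neuropilin and plexin genes the 2 neuropilins were higher in the ZnF4 mutant, Nrp2 as given above and Nrp1 at 4.4 and 4.3 RPKM against 0.4 and 1.1 (difference -2.01, SE 0.33). Plxdc1 (2.04), Plxnd1, a plexin that semaphorins bind (1.01), and Sema7a, a membrane-anchored semaphorin (0.93), were higher in the ZnF1 mutant. Sema7a was at 10.8 and 10.9 against 4.8 and 6.2, with wild type at 4.5 and 4.1, near the ZnF4 level. The list's median was -0.33, while 3 of its 5 calls were positive. Those calls were 33.3% of its 15 tested genes, beside 4.78% of all tested genes. Sema5a, higher in the ZnF4 mutant as given above, was not on the list. None of the 12 tested genes of the integrin list, which includes the ligands Icam1, Icam2 and Vcam1, passed (limma, 3 with an unadjusted p under 0.05).

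Of 47 genes of peripheral B cell subsets in 3 lists, 6 were called, beside 4.78% of all tested genes. Of 15 marginal zone and B1 cell genes, Cd36, a scavenger receptor of marginal zone B cells, was higher in the ZnF4 mutant, at 112.3 and 81.1 RPKM against 35.8 and 23.9, with 16.2 and 19.4 in wild type (difference -1.69, SE 0.23, adjusted p = 0.00986). Dtx1, a Notch2 target in such cells, was higher in the ZnF1 mutant, at 18.3 and 13.8 against 5.6 and 6.7, with wild type at 22.6 and 22.5 (difference 1.31, SE 0.17), and so was Tm6sf1 (1.11). Dtx1 is also a member of the Notch list, where Lfng, which glycosylates Notch receptors (0.98), was higher in the ZnF1 mutant and Rbpj, the DNA-binding partner of Notch, higher in the ZnF4 mutant (-1.01), 3 calls of 15. Bcl6, the repressor that germinal centre B cells need, was the only call of 20 transitional and follicular genes (0.67). Slamf7 (-1.04) and Ell2, an elongation factor of antibody-secreting cells (-1.25), were higher in the ZnF4 mutant among 12 plasma cell genes.

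Signalling and survival lists had 0 to 3 calls each. Of 32 cytokine receptor and Jak-Stat genes, Il6ra (-1.14), Csf2rb (-0.96) and the kinase Tyk2 (-0.53) were higher in the ZnF4 mutant, although the median was positive (0.31). Inppl1, the SHIP2 lipid phosphatase, was the only call of 29 B cell receptor signalling genes, at 3.4 and 2.6 RPKM in the ZnF1 libraries, 15.3 and 14.4 in the ZnF4 libraries and 9.8 and 11.2 in wild type (difference -2.14, SE 0.16, adjusted p = 0.00205). Pmaip1, the death-promoting protein Noxa (-1.30), and Bcl2l2, the survival protein Bcl-w (-0.98), were both higher in the ZnF4 mutant among 12 genes of the Bcl2 family. Tlr12 (-1.74) was the only call of 19 Toll-like receptor genes and Dusp2, a phosphatase of active MAP kinases (0.97), of 28 immediate early genes. Among 25 transcription factors of the B lineage, Sfpi1, which encodes PU.1 and is now named Spi1, was the only call, at 76.8 and 80.8 against 45.6 and 44.7, with wild type at 78.3 and 78.8 (difference 0.80, SE 0.11, adjusted p = 0.0108). Single calls in lists of this size are near the 4.78% called among all tested genes.

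The lists without any call in limma still gave bounds. All 12 tested genes of B cell identity had a 95% interval within 2-fold in either direction, with 0 at an unadjusted p under 0.05. The V(D)J recombination list does not hold Rag1 and Dntt, which were called and are counted with the pro-B and pre-B cell genes above. Intervals lay within 2-fold for 10 of 11 V(D)J recombination genes (1 with an unadjusted p under 0.05), 18 of 19 Ikaros family and NuRD genes (7 under), 20 of 21 BAFF, CD40 and NF-kB genes (4 under) and 34 of 37 respiratory chain genes (2 under). They did so for fewer of the MHC class II genes (8 of 14, 2 under), the homing receptors (10 of 17, 4 under), the glycolysis genes (13 of 17, 5 under) and the ribosomal protein genes (41 of 69, 2 under). Over all tested genes, 80.6% of intervals lay within 2-fold and 20.0% had an unadjusted p under 0.05 (limma). Of the 14 MHC class II genes, 1 had a positive difference, and the median was -0.22. Chd4, the NuRD remodelling ATPase that Ikaros binds, was at 145.9 and 149.7 against 111.7 and 90.6 and missed the threshold (difference 0.55, adjusted p = 0.0776).

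**Figure D5:**
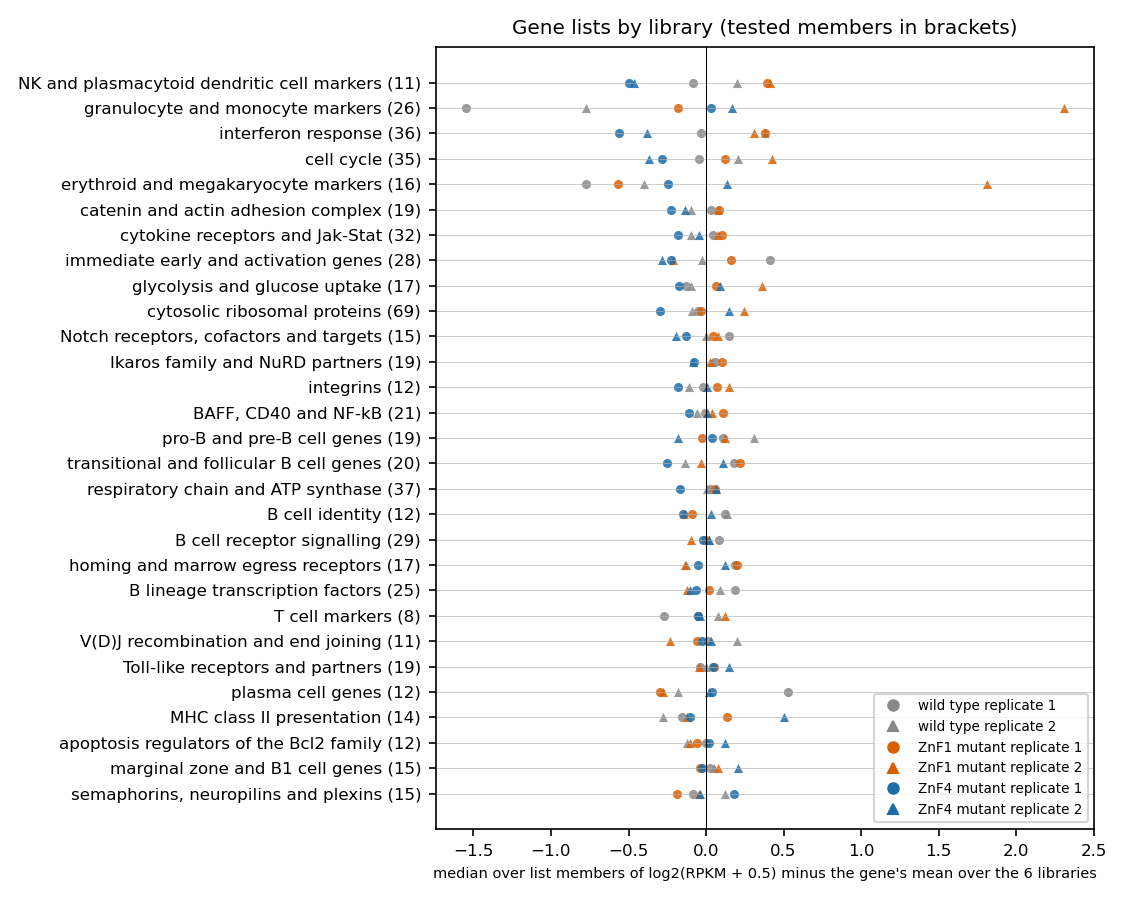
For each of 29 gene lists and each library the x axis gives the median over tested members of log2(RPKM + 0.5) after subtracting the gene's mean over the 6 libraries, with the number of tested members in brackets. ZnF1 replicate 2 (orange triangle) stands far to the right for the granulocyte and erythroid markers, while for the interferon and cell cycle lists both ZnF1 libraries lie to the right of both ZnF4 libraries. Other lists show that order too, among them the natural killer and plasmacytoid dendritic cell, Notch, and Ikaros family and NuRD lists.

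Markers of other marrow cells were followed in the same way. Of 26 granulocyte and monocyte markers all had a positive difference, with a median of 0.98, but only Tyrobp, a signalling adaptor of myeloid and natural killer cells, passed (1.93, adjusted p = 0.0331), and 3 had an unadjusted p under 0.05. Their summed level was 1699 and 9005 RPKM in the ZnF1 libraries, 2024 and 2238 in the ZnF4 libraries and 596.7 and 903.5 in wild type, and the defining marker S100a8 was present in every library. Without ZnF1 replicate 2 the median was -0.16, and without ZnF1 replicate 1 it was 2.12 with 23 called. Tyrobp was at 64.2 and 168.4 against 26.8 and 27.1, with wild type at 52.2 and 54.1, and without ZnF1 replicate 2 its difference was 1.24 (adjusted p = 0.00786).

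The 16 erythroid and megakaryocyte markers had a median of 0.59 and no call (limma, 0 with an unadjusted p under 0.05), and medians of -0.57 without ZnF1 replicate 2 and 1.82 without ZnF1 replicate 1. The 8 tested T cell markers had a median of -0.04, and 4 of them were positive. Cd4 was the only call, higher in the ZnF1 mutant (1.48), at 4.2 and 4.5 RPKM against 1.1 and 1.4. Wild type was at 0.6 and 0.9. Lck was at 14.8 and 11.2 in the ZnF1 libraries against 12.6 and 16.5 in the ZnF4 libraries. Cd8a, too low to be tested, was at 1.2 and 1.5 against 0.1 and 0.2, with 0.2 and 0.2 in wild type. Cd3d was at 0.7 and 0.8 against 0.4 and 0.3 and Cd3e at most 0.7 in any library, and the part of T cells in the Cd4 difference was not tested. Adding the median log2 level of the granulocyte and monocyte markers as a term gave 703 calls, 316 higher in the ZnF1 mutant and 387 higher in the ZnF4 mutant, 464 of them among the 493. In that fit 18 interferon genes were higher without finger 1 and 0 without finger 4, and for the cell cycle list the counts were 8 and 1.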

How the data were processed

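The authors deposited 1 table of RPKM values for 26531 transcripts in 6 poly(A)-enriched libraries (TruSeq, per the labels' protocols); the mm9 build, TopHat and bedtools are named per the submitters' processing notes, with versions, strand setting and scaling total not given in the sources used here. Without strand, overlapping and antisense genes cannot be told apart. Whole reads could not be recovered from the rounded RPKM (at best 24.5% to 28.4% of values of short transcripts fell on whole reads), so depth is unknown and no counting interval is given.

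For each gene name the transcript with the highest mean RPKM was kept (3305 names had several), and genes with a mean of at least 1 RPKM were tested on log2(RPKM + 0.5), which understates changes of weakly expressed genes. All 6 libraries entered a linear model in which each genotype had its own coefficient, run in limma 3.58.1 under R 4.3.3 (eBayes with an intensity trend, 3 residual degrees of freedom, two-sided), with Benjamini-Hochberg adjustment over 10322 genes; the script was tested on simulated data. Genes named were Ikzf1, the 15 largest called differences in each direction without overlap and with at least 3 RPKM in the higher mutant (BC094916 and a LOC name passed over), up to 4 called members of each list (2 by smallest p where none was called), and called neighbours; other list members were named after their values were seen. The members and the 29 lists were chosen with earlier results of these data known, and no set test was run. Alternatives changed the pseudocount, filter, normalization, trend, transcript choice, model terms and libraries. Values of some listed genes are not reported here.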

Additional observations from a re-analysis of the deposited data

How the results depend on the processing

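Against 493 calls (215 higher in the ZnF1 mutant, 278 higher in the ZnF4 mutant), there were 309 (93 and 216) with no filter on low values and 249 (100 and 149) with only the 4 mutant libraries, the first with more genes tested and the second with fewer libraries behind the spread. The share of calls higher in the ZnF1 mutant was 43.6%, and 30.1% with no filter. Leaving out 1 library at a time gave 0 to 814 calls, 0 to 488 higher in the ZnF1 mutant and 0 to 326 higher in the ZnF4 mutant. Only 183 calls were shared with the fit with no filter, 238 with that on 4 libraries, 391 without ZnF1 replicate 1 and 291 without ZnF1 replicate 2. Other pseudocounts gave 492 and 494, a minimum of 3 RPKM 400, quantile normalization 509, no intensity trend 467, summed transcripts 502, a term for sex 476 and a term for granulocyte and monocyte markers 703. The cause of each change was not tested. With the replicate number as a block there were 529 calls, 460 of them shared; the correlations of same-numbered deviations (0.28 for wild type and ZnF1, -0.03 for wild type and ZnF4, 0.21 for ZnF1 and ZnF4) did not show that the numbers pair the samples, although within the mutants they also separate the sexes. Of 113 named genes that were called, 113 lost their call without ZnF4 replicate 1, 111 without ZnF4 replicate 2, 55 with no filter, 38 with only the 4 mutant libraries, 34 without either wild-type library, 28 without ZnF1 replicate 2, 17 without ZnF1 replicate 1 and 4 with the block; 0 changed sign, which their non-overlapping libraries fix for the fits that leave out a library. Nfe2, not called, with 1.36 in the reported fit, ranged from -0.05715 without ZnF1 replicate 2 to 2.77 without ZnF1 replicate 1. Depth is unknown and the values are rounded, which limits genes near 1 RPKM most.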

Other observations

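Some of the called genes were neighbours in the gene order. Of 5980 pairs of adjacent tested genes, 32 pairs (0.535%) had both genes called, 28 of them in the same direction and 4 in opposite directions. How often adjacent tested genes share a direction in general is not given, so this split is a description only. Among the pairs higher in the ZnF4 mutant, Tpsg1, a mast cell tryptase, was at 3.3 and 2.7 RPKM in the ZnF4 libraries and 0.1 and 0.1 in the ZnF1 libraries beside Cacna1h (differences -2.54 and -4.02). Tfpi, a coagulation inhibitor (-1.76), lies next to Ctnnd1 (-2.81), and Rps6kc1 (-1.71) next to Prox1. Kdelc1 (now Poglut2), Bivm and Ercc5, a repair nuclease, form a run of 3, with -2.20, -1.90 and -0.65. Slc15a3, a peptide transporter, was at 38.6 and 40.6 against 8.2 and 8.8, and its neighbour Tmem132a at 6.3 and 6.8 against 1.4 and 1.3.

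Among those higher in the ZnF1 mutant, BC094916 (now Ifi214), Pydc4, Pyhin1 and Pydc3 form a run of 4 related genes with 3.07, 1.56, 0.89 and 1.51. Dtx1, Oas2 and Oas3 form another (1.31, 1.70 and 1.39), as do Parp14, Dtx3l and Parp9 (0.74, 0.71 and 0.59). Slfn2, which keeps lymphocytes quiescent, was at 164.2 and 142.9 against 52.0 and 66.3, next to Slfn1 at 5.5 and 14.3 against 1.7 and 1.7. Crip1, a LIM domain protein, was at 219.8 and 196.4 against 62.0 and 79.9, with wild type at 238.6 and 214.5. The opposite pairs were Midn and Cirbp, Trim25 and Dgke, Gimap3 and Tmem176b, and Myo7a and Capn5. Myo7a, an unconventional myosin, was at 3.9 and 3.4 in the ZnF1 libraries and 19.6 and 13.5 in the ZnF4 libraries, and Capn5, a calpain, at 8.1 and 7.9 against 3.2 and 4.3. Reads of overlapping neighbours cannot be told apart, and near-identical families such as Slfn, Oas and the Pydc genes share sequence. The gene order came from a table of another build (GRCm38.p6) and covered 10279 tested genes.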
